A study of Bos taurus with 6 samples.

Results

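Genes of secretory and vesicle traffic were followed through the depth of normal bovine articular cartilage. They were every gene whose symbol begins with SEC and a digit, SAR1, TRAPPC, KDELR, ARF and a digit or RAB and a digit, together with the coat subunits named COPA to COPZ. The rule found 146 probesets for 102 of the 11636 gene symbols on the array. Where a gene had several probesets, as 37 did, the one with the highest mean log2 expression over the 6 arrays stood for it. The members comprised 8 genes of the translocon and signal peptidase, 14 of the COPII coat, 13 of the COPI coat and the ARF GTPases, 3 KDEL receptors, 8 TRAPP subunits, 44 RAB GTPases, 6 RAB regulators or effectors and 6 other SEC genes. SEC1 met the rule by its symbol only, since the gene title in the deposited table names it as a fucosyltransferase.

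Proteins of the cartilage matrix enter the endoplasmic reticulum (ER) through the SEC61 channel, and signal peptidase removes their leader. COPII vesicles, whose coat is placed by the GTPase SAR1, carry them out of the ER. COPI vesicles, recruited by ARF GTPases, bring escaped ER proteins and KDEL receptors back from the Golgi. TRAPP complexes tether vesicles and activate RAB1, and each of the many RAB GTPases marks a compartment or a transport step. Chondrocytes secrete large amounts of procollagen and proteoglycan, and loss of the COPII protein SEC23A in humans gives a craniofacial skeletal disorder with ER retention of collagen.

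The tissue was cartilage from the weight-bearing femoral condyles of the knees of 2 mature cattle aged 14 to 30 months. Each animal gave a superficial (SZ), a middle (MZ) and a deep zone (DZ), cut from 50 µm sections as the upper 10%, the middle 40% and the lower 30% with about 200 µm discarded between them. Each zone of each animal was 1 array, made from 5 ng of RNA amplified before labelling, so that n = 2 per zone and replicate 1 and replicate 2 are the animals. Values are log2 expression as deposited, differences are the zone named first minus the other, and the SE is that of a limma model with zone and animal. A difference was called at an adjusted p under 0.05 over all 24016 probesets. The number of arrays limits the precision, and the files hold no detection calls. In such bulk tissue, fewer cells of a type and less RNA per cell cannot be told apart.

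Markers placed the samples in cartilage. The 6 chondrocyte markers averaged 11.54 to 12.65 on the 6 arrays, with 0 of 6 called in each comparison. The 3 superficial zone markers averaged 12.47 and 12.77 in SZ, 9.70 and 11.61 in MZ, and 5.96 and 7.84 in DZ. Markers of hypertrophic chondrocytes, osteoblasts, osteoclasts, endothelium and leukocytes averaged highest on the DZ arrays, with 4 of 4, 2 of 3, 2 of 4, 3 of 5 and 4 of 6 called for SZ against DZ. The endothelial markers averaged 5.25 and 7.01 in DZ, against 2.92 to 3.18 on the SZ and MZ arrays. The part of these cells in the differences from DZ given here was not tested. Besides DZ, the SZ array of animal 1 averaged 7.76 for the osteoblast markers, against 5.14 on the other SZ array and 4.59 and 3.91 on the MZ arrays. COL10A1, the collagen of hypertrophic chondrocytes, read 8.12 and 3.99 in SZ, 3.52 and 3.25 in MZ, and 12.34 and 9.48 in DZ. The leukocyte marker CD14 ran the other way, at 5.72 and 5.81 in SZ, against 4.67 and 4.75 in DZ. The DZ arrays also carry another code in their labels than the SZ and MZ arrays, and that code and the zone cannot be told apart.

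No traffic gene was called different between any zones. For SZ against MZ 0 of 102 passed the limma test, beside 0.0416% of all probesets, and 8 had an unadjusted p under 0.05 (7.84%, against 8.84% of all probesets). For SZ against DZ 0 passed, beside 2.75% of all probesets, and 10 had an unadjusted p under 0.05 (9.8%, against 17.6%). For MZ against DZ 0 passed, beside 0.704%, and 6 had an unadjusted p under 0.05 (5.88%, against 9.93%). The F test over all zones called 0, beside 1.84% of all probesets, and its unadjusted p was under 0.05 for 8 members (7.84%, against 14.3%). A p that misses the threshold does not show equal levels, so the intervals of the differences are given as well.

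The differences between zones were mostly small in size. The median absolute log2 difference over the members was 0.23 between SZ and MZ, 0.26 between SZ and DZ, and 0.17 between MZ and DZ, against 0.22, 0.30 and 0.24 over all probesets. The median signed differences were −0.07, −0.06 and 0.01 over the members, against 0.00, 0.06 and 0.06 over all probesets. Of the members 83 were brighter than the median probeset, and the probesets above that median had signed medians of −0.04, −0.05 and 0.00. The median absolute differences of those brighter probesets were 0.28, 0.37 and 0.27, against 0.23, 0.25 and 0.17 for the 83 members. Differences beyond 2-fold, or 1 on the log2 scale, were found for 3 members in SZ against MZ, 3 in SZ against DZ and 0 in MZ against DZ, beside 4.51%, 9.71% and 5.23% of all probesets. The 95% interval lay within 2-fold in either direction for 72, 58 and 79 of the 102 members, beside 62.1%, 52% and 60.7% of all probesets. For 53 members it did so in all 3 comparisons, beside 40.8% of all probesets. Among the 12008 probesets above the median brightness, the interval lay within 2-fold for 6272, 5123 and 6462. For the 83 brighter members these counts were 58, 49 and 65. The median SE was 0.25. The smallest difference called anywhere in the table was 2.65 between SZ and MZ, 1.22 between SZ and DZ, and 1.59 between MZ and DZ. The largest among the members were 1.14, 1.30 and 0.99.

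**Figure D1:**
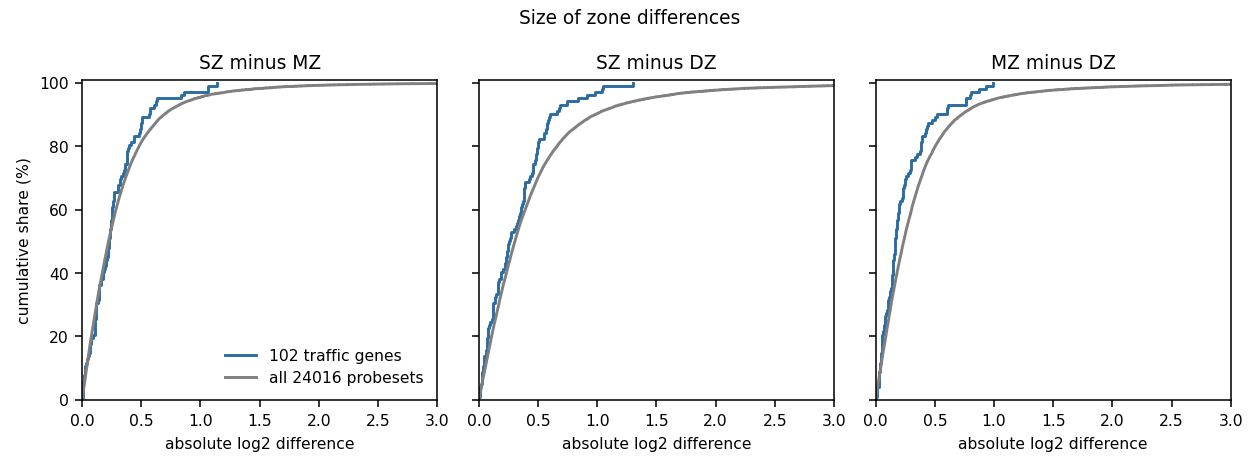
Cumulative share (%) of the 102 traffic genes (blue) and of all 24016 probesets (grey) by absolute log2 difference, 1 panel per zone comparison. The largest differences of the traffic genes lie at 1.14, 1.30 and 0.99, while the grey curves go on beyond.

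At the entry to the pathway, the translocon and signal peptidase genes had no common direction, with 4 of 8 SZ minus DZ differences above 0 and 4 below. Their median differences were 0.02 for SZ minus MZ, −0.03 for SZ minus DZ and −0.08 for MZ minus DZ, and the SZ minus DZ values ran from −1.04 to 0.50. SEC11C, a catalytic subunit of signal peptidase, read 6.96 and 7.06 in SZ, 7.60 and 7.30 in MZ, and 8.22 and 7.88 in DZ. Both SZ arrays lay below both MZ arrays, and both MZ arrays below both DZ arrays. Its SZ minus DZ difference was −1.04 (SE 0.24, 95% interval −1.63 to −0.45, adjusted p = 0.0948).

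SEC61A1, the pore-forming subunit of the channel, read 6.45 and 5.84 in SZ, 6.84 and 6.10 in MZ, and 7.46 and 6.52 in DZ. The level was higher with each step of depth within each animal, and animal 1 was above animal 2 in every zone. Both SZ arrays were below both DZ arrays, and MZ overlapped both zones. The SZ minus DZ difference was −0.84 (SE 0.23, 95% interval −1.40 to −0.28, adjusted p = 0.136). SEC11A, the other catalytic subunit of signal peptidase, read 10.04 and 9.51 in SZ, 9.20 and 9.15 in MZ, and 9.44 and 9.12 in DZ. For SZ minus DZ the value was 0.50 (SE 0.24, 95% interval −0.08 to 1.09, adjusted p = 0.348), with both SZ arrays above the other 4, opposite in sign to SEC11C. Whether SEC11A and SEC11C differ was not tested. SEC61A2, a second pore-forming subunit, had a difference of −0.17 (SE 0.34). SEC61A2 lies outside the rule for named genes and was added after its values were seen.

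The small SEC61 subunits and the partners of the channel differed less between SZ and DZ than SEC11C did. SEC61B read 9.90 and 9.74 in SZ, 9.67 and 9.18 in MZ, and 9.51 and 9.44 in DZ, with both SZ arrays above the other 4. SEC61G read 10.24 and 10.25 in SZ, 10.62 and 10.03 in MZ, and 10.64 and 10.07 in DZ, with overlap between all zones. SEC62, which helps short precursors into the channel, read 9.97 and 9.74 in SZ, 9.75 and 9.73 in MZ, and 9.41 and 9.33 in DZ. Both DZ arrays of SEC62 were below the other 4, and its SZ minus DZ difference was 0.48 (SE 0.22, 95% interval −0.06 to 1.03, adjusted p = 0.334). For SEC63, a membrane partner that binds the chaperone BiP, the same difference was 0.04 (SE 0.29).

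**Figure D2:**
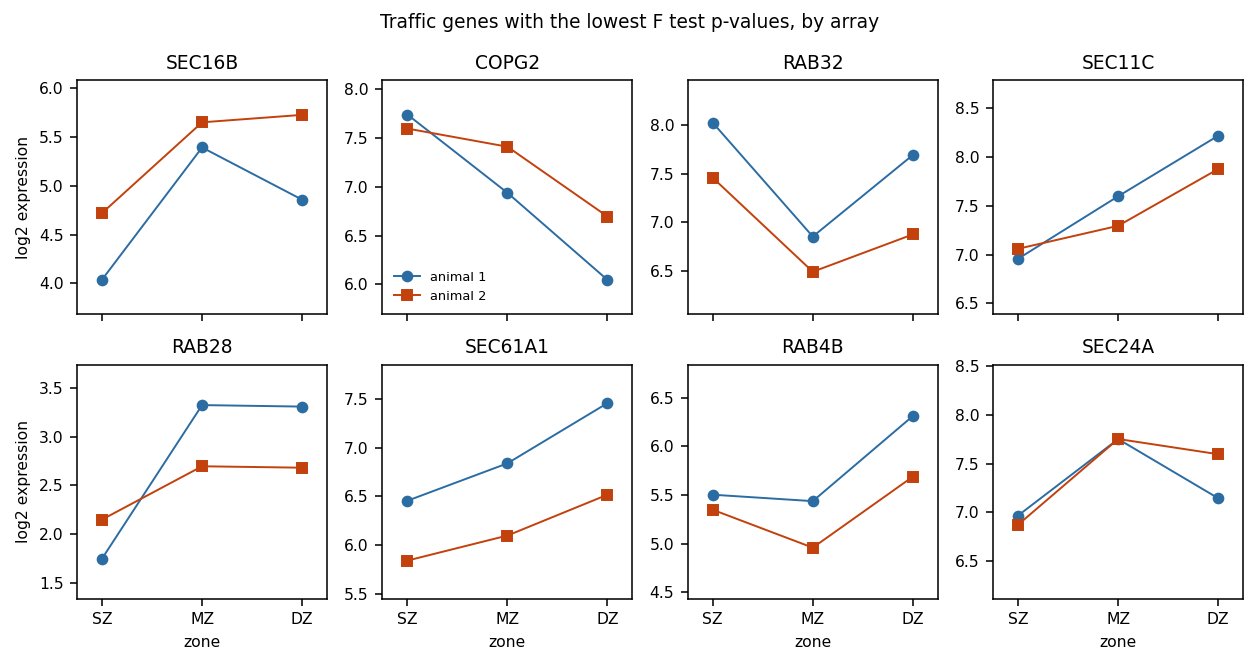
Log2 expression (vertical axis, a separate range per panel) by zone for the 8 traffic genes with an unadjusted F test p under 0.05, with animal 1 as blue circles and animal 2 as orange squares. COPG2 is lower and SEC11C higher with each step of depth in both animals, and SEC16B, RAB28 and SEC24A are lowest in SZ in both, while 0 of the 8 passed the adjusted test.

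Among the COPII genes, 10 of 14 had a negative SZ minus MZ difference and 10 of 14 a negative SZ minus DZ difference. The medians were −0.21 and −0.26, against 0.00 and 0.06 over all probesets and −0.04 and −0.05 over those above the median brightness. Negative differences were found for 11932 and 10650 of all 24016 probesets, and for 6546 and 6447 of the 12008 above the median brightness. Of the 83 members above that brightness, 53 and 48 were negative. SEC16B, a scaffold of ER exit sites, had the most negative SZ minus MZ difference of all members. It read 4.04 and 4.72 in SZ, 5.39 and 5.65 in MZ, and 4.86 and 5.73 in DZ, so that both SZ arrays lay below the other 4. The differences were −1.14 (SE 0.25, 95% interval −1.76 to −0.52, adjusted p = 0.231) for SZ minus MZ and −0.91 (SE 0.25, 95% interval −1.53 to −0.29, adjusted p = 0.139) for SZ minus DZ.

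SEC24A, one of the coat subunits that bind cargo, read 6.97 and 6.87 in SZ, 7.75 and 7.75 in MZ, and 7.15 and 7.60 in DZ. Its SZ arrays lay below the other 4 arrays, and its MZ arrays above the other 4. The SZ minus MZ difference was −0.83 (SE 0.25, 95% interval −1.44 to −0.22, adjusted p = 0.379). In the deposited dCHIP matrix, a second processing of the same arrays, neither separation held. There SEC24A read 6.45 and 6.10 in SZ, 6.75 and 6.76 in MZ, and 6.29 and 6.97 in DZ. The SZ minus MZ difference was −0.48 (SE 0.31) in that matrix. The other cargo-binding paralogues had smaller SZ minus MZ differences. SEC24C read 6.67 and 7.04 in SZ, 7.07 and 7.40 in MZ, and 7.18 and 7.62 in DZ, higher with each step of depth in both animals. SEC24D, which with SEC24C forms the second pair of the family, read 7.80 and 7.76 in SZ, 8.41 and 7.88 in MZ, and 8.00 and 7.99 in DZ. SEC24B read 5.63 and 5.72 in SZ, 5.88 and 5.70 in MZ, and 5.25 and 5.56 in DZ. The SZ minus DZ differences were −0.55 (SE 0.22) for SEC24C, −0.22 (SE 0.25) for SEC24D and 0.27 (SE 0.24) for SEC24B.

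The remaining genes of the coat had differences of both signs. SEC23A, the inner-coat GTPase-activating subunit, read 8.19 and 7.48 in SZ, 8.20 and 8.02 in MZ, and 7.73 and 7.97 in DZ. For SZ minus DZ the value was −0.01 with an interval of −0.73 to 0.70. SEC23B, its paralogue, had 0.23 (interval −0.35 to 0.82), and SEC31A, of the outer cage, had −0.34 (interval −1.04 to 0.37). SEC13, which is shared by the outer cage and the nuclear pore, read 8.69 and 8.32 in SZ, 8.37 and 8.40 in MZ, and 9.18 and 8.81 in DZ. Both of its DZ arrays were above the other 4, and its MZ minus DZ difference was −0.60 (SE 0.24, 95% interval −1.19 to −0.02, adjusted p = 0.486). The GTPases SAR1A and SAR1B had SZ minus MZ differences of 0.19 (SE 0.24) and 0.38 (SE 0.22). SAR1B was higher in animal 1 than in animal 2 in every zone, at 8.34 and 7.58 in SZ, 7.90 and 7.27 in MZ, and 8.07 and 7.48 in DZ. SEC16A, the main exit-site scaffold, had an SZ minus DZ difference of −0.30 (SE 0.25). SEC31B, an outer-cage paralogue, read 3.14 and 4.08 in SZ, 3.84 and 3.66 in MZ, and 3.43 and 3.28 in DZ.

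The COPI coat held the member with the lowest adjusted p of the 102 genes. COPG2, a gamma subunit, read 7.74 and 7.60 in SZ, 6.94 and 7.41 in MZ, and 6.05 and 6.70 in DZ. It was lower with each step of depth in both animals, with no overlap between zones. The SZ minus DZ difference was 1.30 (SE 0.28, 95% interval 0.62 to 1.97, adjusted p = 0.0779), and the MZ minus DZ difference was 0.80 (SE 0.28, 95% interval 0.13 to 1.48, adjusted p = 0.415). A second COPG2 probeset gave an SZ minus DZ difference of 1.40 (SE 0.33, adjusted p = 0.0949). In the dCHIP matrix the SZ minus DZ difference of COPG2 was 0.62 (SE 0.25). Over 12 other settings the difference ran from 0.62 to 1.65 with adjusted p of 0.0421 to 0.353, called in 1 of them, where only probesets above the median brightness were tested.

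COPG, the other gamma subunit, now named COPG1, read 9.44 and 8.48 in SZ, 9.12 and 9.01 in MZ, and 9.82 and 9.09 in DZ. Its SZ minus DZ difference was −0.50 (SE 0.28), opposite in sign to COPG2, and whether both differ was not tested. Of the remaining 6 coat subunits, COPB2 read 8.99 and 8.58 in SZ, 9.47 and 8.93 in MZ, and 9.44 and 9.15 in DZ, with an SZ minus DZ difference of −0.51 (SE 0.23). COPE and COPZ2 had −0.38 (SE 0.25) and −0.45 (SE 0.27). COPA, COPB1 and COPZ1 lay nearer to 0, at 0.17, 0.04 and 0.02. COPB1, the large beta subunit, read 8.68 and 8.60 in SZ, 8.74 and 8.75 in MZ, and 8.56 and 8.65 in DZ, and the interval of its SZ minus DZ difference was −0.50 to 0.59.

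The ARF GTPases, which recruit COPI and other coats, differed among themselves. ARF1 read 9.51 and 8.81 in SZ, 8.11 and 8.48 in MZ, and 8.59 and 8.40 in DZ. Both SZ arrays were above the other 4, mainly through the array of animal 1, and the SZ minus MZ difference was 0.86 (SE 0.31, 95% interval 0.11 to 1.61, adjusted p = 0.483). A second ARF1 probeset read 9.03 and 8.21 in SZ, 7.30 and 8.67 in MZ, and 8.27 and 8.77 in DZ. There, and in the dCHIP matrix, the SZ array of animal 2 lay below its MZ array and both DZ arrays. The SZ minus DZ difference of ARF1 was 0.66 (SE 0.31) but −0.38 (SE 0.43) in the dCHIP matrix. ARF3 read 7.49 and 7.15 in SZ, 6.90 and 7.72 in MZ, and 8.99 and 7.60 in DZ, where 1 DZ array stood far above the other 5. Its MZ minus DZ difference was −0.99 (SE 0.50, 95% interval −2.19 to 0.22, adjusted p = 0.6). The SZ minus DZ difference of ARF3 was −0.98 (SE 0.50), but −0.17 without DZ replicate 1 and −1.79 without DZ replicate 2. ARF6, which acts at the plasma membrane, read 4.16 and 4.57 in SZ, 3.62 and 3.87 in MZ, and 5.00 and 4.36 in DZ. Its MZ arrays were below the other 4 and its MZ minus DZ difference was −0.94 (SE 0.32, 95% interval −1.71 to −0.16, adjusted p = 0.404), but a second ARF6 probeset gave 0.59 (SE 0.27) and the dCHIP matrix gave 0.74 (SE 0.29). ARF4 read 10.47 and 10.20 in SZ, 10.49 and 10.23 in MZ, and 10.33 and 10.73 in DZ. Its SZ minus DZ difference was −0.20 (SE 0.27), and −0.62 (SE 0.26) in the dCHIP matrix. A second, dimmer ARF4 probeset gave −1.17 (SE 0.34, adjusted p = 0.146) for SZ minus DZ. For MZ minus DZ that probeset gave −1.37 (SE 0.34, adjusted p = 0.223). ARF5 read 3.84 and 2.58 in SZ, 3.12 and 3.71 in MZ, and 3.74 and 3.15 in DZ, below the lower quartile on at least 1 array. All 5 ARF genes had a negative MZ minus DZ difference in the probesets used, from −0.99 to −0.03, of which 0 were called. Over all 24016 probesets 10306 were negative. Dimmer probesets gave both signs, at −0.53 and 0.24 for ARF1, 0.04 for ARF3, −1.37 for ARF4 and 0.59 for ARF6.

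**Figure D3:**
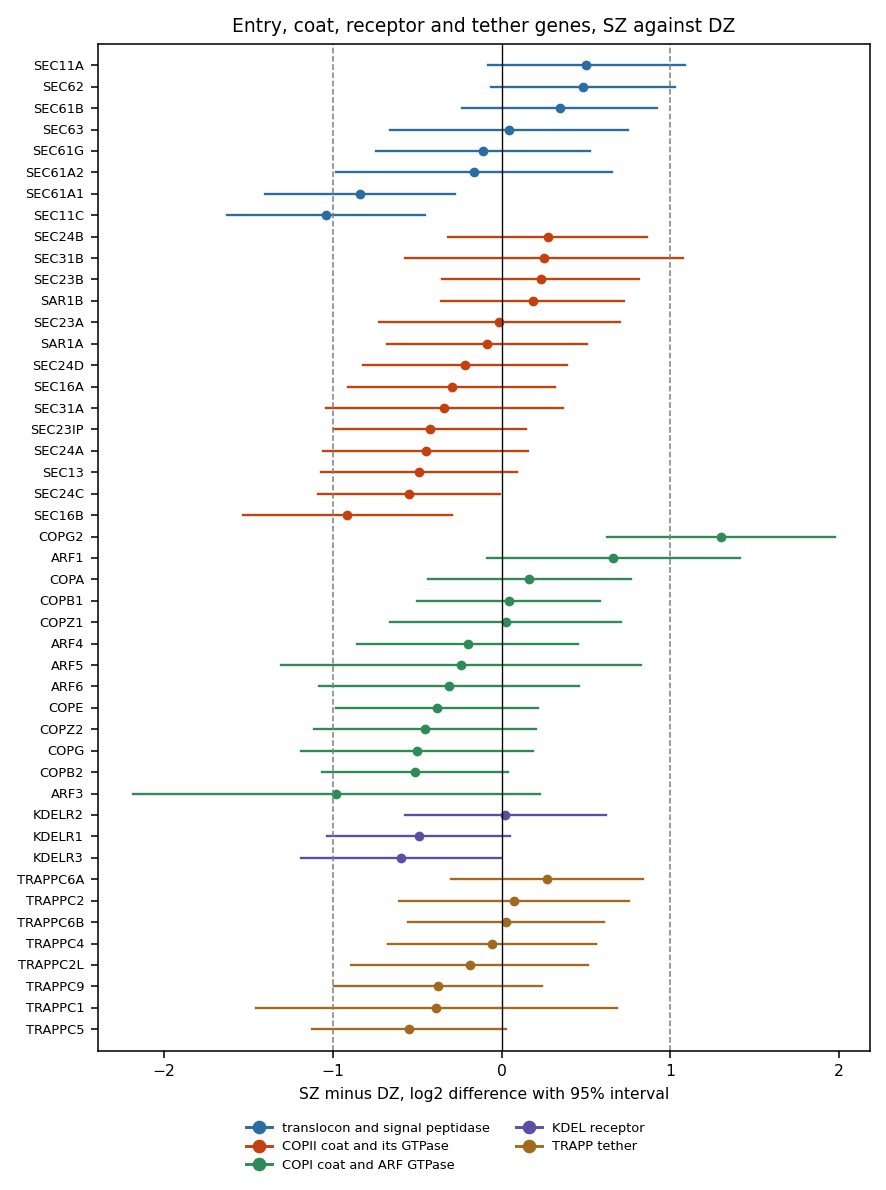
SZ minus DZ log2 difference with its 95% interval (points and bars) for the 46 entry, coat, KDEL receptor and TRAPP genes, coloured by class. Dashed lines mark 2-fold in either direction; COPG2 stands furthest right at 1.30 and SEC11C furthest left at −1.04, and bars that cross 0 are the majority.

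The KDEL receptors, which return ER chaperones from the Golgi, had median differences of −0.26 for SZ minus MZ and −0.49 for SZ minus DZ. KDELR3 read 9.10 and 8.79 in SZ, 9.90 and 9.12 in MZ, and 9.88 and 9.20 in DZ, and its SZ minus DZ difference was −0.60 (SE 0.24, 95% interval −1.19 to −0.01, adjusted p = 0.279). KDELR1 read 8.55 and 8.05 in SZ, 8.84 and 8.29 in MZ, and 9.02 and 8.57 in DZ, higher with each step of depth in both animals, and its difference was −0.49 (SE 0.22, 95% interval −1.03 to 0.05, adjusted p = 0.321). In both genes animal 1 was higher than animal 2 in each zone. The SZ arrays of KDELR3 were below the other 4, and those of KDELR1 were below both DZ arrays but overlapped MZ. KDELR2 read 11.09 and 11.03 in SZ, 11.33 and 11.20 in MZ, and 10.86 and 11.21 in DZ. The difference of SZ from DZ was 0.02 with an interval of −0.57 to 0.62.

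Of the TRAPP genes, 3 of 8 had a positive and 5 a negative SZ minus DZ difference, with a median of −0.12. TRAPPC5 read 4.23 and 3.95 in SZ, 5.00 and 4.32 in MZ, and 4.84 and 4.43 in DZ, with both SZ arrays below the other 4. Its SZ minus MZ difference was −0.58 (SE 0.24, 95% interval −1.15 to −0.0025, adjusted p = 0.562). TRAPPC1 read 7.04 and 5.86 in SZ, 5.72 and 6.42 in MZ, and 6.89 and 6.78 in DZ, and its SZ arrays lay far apart and overlapped both other zones. The MZ minus DZ difference of TRAPPC1 was −0.77 (SE 0.44, 95% interval −1.83 to 0.30, adjusted p = 0.652), but −0.09 without MZ replicate 1 and −1.44 without MZ replicate 2. TRAPPC2, whose loss in humans causes a late-onset spondyloepiphyseal dysplasia, read 5.31 and 5.34 in SZ, 5.32 and 5.05 in MZ, and 4.96 and 5.53 in DZ. The zones overlapped, and its SZ minus DZ difference was 0.08 with an interval of −0.61 to 0.76. In the dCHIP matrix both SZ arrays of TRAPPC2, at 5.62 and 5.58, were above the other 4, and the difference was 0.41 (SE 0.26). A second TRAPPC2 probeset gave −0.30 (SE 0.38), so that its direction was not settled. TRAPPC6B had an SZ minus DZ difference of 0.03 (SE 0.24). SEC22B, a SNARE of ER and Golgi vesicles, read 9.28 and 9.00 in SZ, 9.36 and 9.21 in MZ, and 8.91 and 9.30 in DZ, also with overlap. For SZ minus DZ the value was 0.04 (SE 0.26). SEC1, the fucosyltransferase, read 2.52 and 2.55 in SZ, 2.30 and 2.26 in MZ, and 1.99 and 1.72 in DZ, below the lower quartile of every array. Its SZ minus DZ difference was 0.68 (SE 0.23, 95% interval 0.12 to 1.23, adjusted p = 0.207), and in the dCHIP matrix it was 1.47 (SE 0.30, 95% interval 0.75 to 2.20, adjusted p = 0.0363), which was called.

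The RAB GTPases of the ER and Golgi had the narrowest spread of SZ minus MZ differences among the RAB classes, at −0.19 to 0.22. All 9 had SZ minus MZ intervals within 2-fold in either direction, and 7 did for SZ minus DZ. This narrow spread did not hold in the dCHIP matrix, where the SZ minus MZ differences of the class ran from −0.77 to 0.87. The ends were RAB33B (95% interval −1.41 to −0.13) and RAB6B (95% interval 0.22 to 1.51), and neither interval lay within 2-fold. RAB1A, which acts with TRAPP in ER to Golgi transport, read 10.21 and 10.15 in SZ, 10.25 and 10.13 in MZ, and 10.09 and 10.15 in DZ. The 6 arrays lay within a narrow band, and the intervals were −0.56 to 0.53 for SZ minus MZ and −0.48 to 0.60 for SZ minus DZ. RAB2A, of early Golgi traffic, read 9.68 and 9.52 in SZ, 9.64 and 9.69 in MZ, and 9.38 and 9.35 in DZ. Its DZ arrays were below the other 4, with an SZ minus DZ difference of 0.24 (SE 0.22, 95% interval −0.31 to 0.78, adjusted p = 0.638). RAB6A, of retrograde Golgi traffic, had −0.12 (SE 0.30), RAB33B had −0.12 (SE 0.24) and RAB18 had 0.38 (SE 0.25). In the dCHIP matrix these differences were 0.06 for RAB2A, −0.57 (SE 0.26) for RAB6A, −0.45 for RAB33B and 0.48 for RAB18. There 1 DZ array of RAB2A (9.28) lay above 1 SZ array (9.15). RAB6B and RAB19 lay near the floor of the arrays.

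The RAB GTPases of exocytosis ran from −0.64 to 0.50 for SZ minus MZ. RAB8A, of transport to the plasma membrane and the cilium, read 6.25 and 6.29 in SZ, 7.48 and 6.32 in MZ, and 7.06 and 6.68 in DZ. Both SZ arrays were below the other 4, and the SZ minus MZ difference was −0.64 (SE 0.33, 95% interval −1.44 to 0.17, adjusted p = 0.677). It was −0.14 without MZ replicate 1 and −1.13 without MZ replicate 2, and it was −0.23 without SZ replicate 1. RAB8B, its paralogue, read 4.19 and 4.82 in SZ, 3.84 and 4.19 in MZ, and 5.34 and 4.42 in DZ, with MZ below DZ, and the MZ minus DZ difference was −0.87 (SE 0.40, 95% interval −1.84 to 0.10, adjusted p = 0.558). That difference was −0.17 without DZ replicate 1 and −1.57 without DZ replicate 2. RAB10 read 8.74 and 8.87 in SZ, 8.45 and 8.63 in MZ, and 8.47 and 9.28 in DZ, with SZ above MZ and DZ arrays that overlapped both. RAB3D, known from regulated secretion, had an SZ minus DZ difference of −0.17 (SE 0.26). RAB27B, of the same process, had −0.25 (SE 0.29), but its second probeset gave 0.18 (SE 0.43) and the dCHIP matrix gave 0.47 (SE 0.31), so that its direction was not settled. RAB26 read 2.86 and 3.42 in SZ, 2.75 and 2.54 in MZ, and 2.39 and 2.76 in DZ, near the floor.

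Among the RAB GTPases of early and recycling endosomes, RAB4A and RAB4B, both of fast recycling, had opposite signs. RAB4B read 5.50 and 5.35 in SZ, 5.44 and 4.96 in MZ, and 6.31 and 5.69 in DZ. Both DZ arrays were above the other 4, and the MZ minus DZ difference was −0.80 (SE 0.24, 95% interval −1.39 to −0.21, adjusted p = 0.335). RAB4A read 6.07 and 6.57 in SZ, 6.83 and 6.17 in MZ, and 6.01 and 5.47 in DZ, with DZ arrays below the other 4. Its MZ minus DZ difference was 0.76 (SE 0.34, 95% interval −0.06 to 1.58, adjusted p = 0.543), and the contrast between the paralogues was not tested. With 1 array left out, that difference of RAB4A ran from 0.44 to 1.08. In the dCHIP matrix it was 0.63 (SE 0.29), and there the DZ array of animal 1 (5.88) lay above its SZ array (5.85). RAB31, of transport between the Golgi and endosomes, read 6.49 and 7.00 in SZ, 7.17 and 6.80 in MZ, and 7.41 and 7.56 in DZ, highest on both DZ arrays. For SZ minus DZ the value was −0.74 (SE 0.28, 95% interval −1.43 to −0.06, adjusted p = 0.252). RAB5A, of early endosomes, read 8.68 and 8.92 in SZ, 9.06 and 9.01 in MZ, and 8.53 and 9.05 in DZ. RAB11A, of recycling endosomes, read 7.03 and 7.67 in SZ, 7.31 and 7.11 in MZ, and 7.36 and 7.15 in DZ. In both genes the DZ arrays overlapped the other zones, and the SZ minus DZ differences were 0.01 (interval −0.60 to 0.61) and 0.10 (interval −0.62 to 0.81).

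In the late endosome, lysosome and autophagosome class, RAB32 stood out by size. RAB32, which serves lysosome-related organelles and mitochondria, read 8.02 and 7.46 in SZ, 6.86 and 6.49 in MZ, and 7.69 and 6.88 in DZ. Both MZ arrays were below the other 4. The differences were 1.07 (SE 0.24, 95% interval 0.49 to 1.65, adjusted p = 0.235) for SZ minus MZ and −0.61 (SE 0.24, 95% interval −1.19 to −0.03, adjusted p = 0.482) for MZ minus DZ. RAB7A, of late endosomes, read 8.04 and 8.59 in SZ, 8.66 and 8.37 in MZ, and 8.81 and 8.32 in DZ. For SZ minus DZ the value was −0.25 with an interval of −1.01 to 0.51. RAB28, in none of these classes, read 1.75 and 2.15 in SZ, 3.32 and 2.70 in MZ, and 3.31 and 2.68 in DZ, with both SZ arrays below the other 4. Its SZ minus MZ difference was −1.06 (SE 0.33, 95% interval −1.85 to −0.27, adjusted p = 0.392). However, RAB28 lay below the lower quartile of brightness on both SZ arrays and on the MZ and DZ arrays of animal 2. RAB12 had an SZ minus DZ difference of 0.12 (SE 0.25). The 6 RAB regulators or effectors had SZ minus DZ differences of −0.39 to 0.02, and RAB11FIP5, a RAB11 effector, read 6.78 and 7.91 in SZ, 7.32 and 7.24 in MZ, and 7.77 and 7.00 in DZ.

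**Figure D4:**
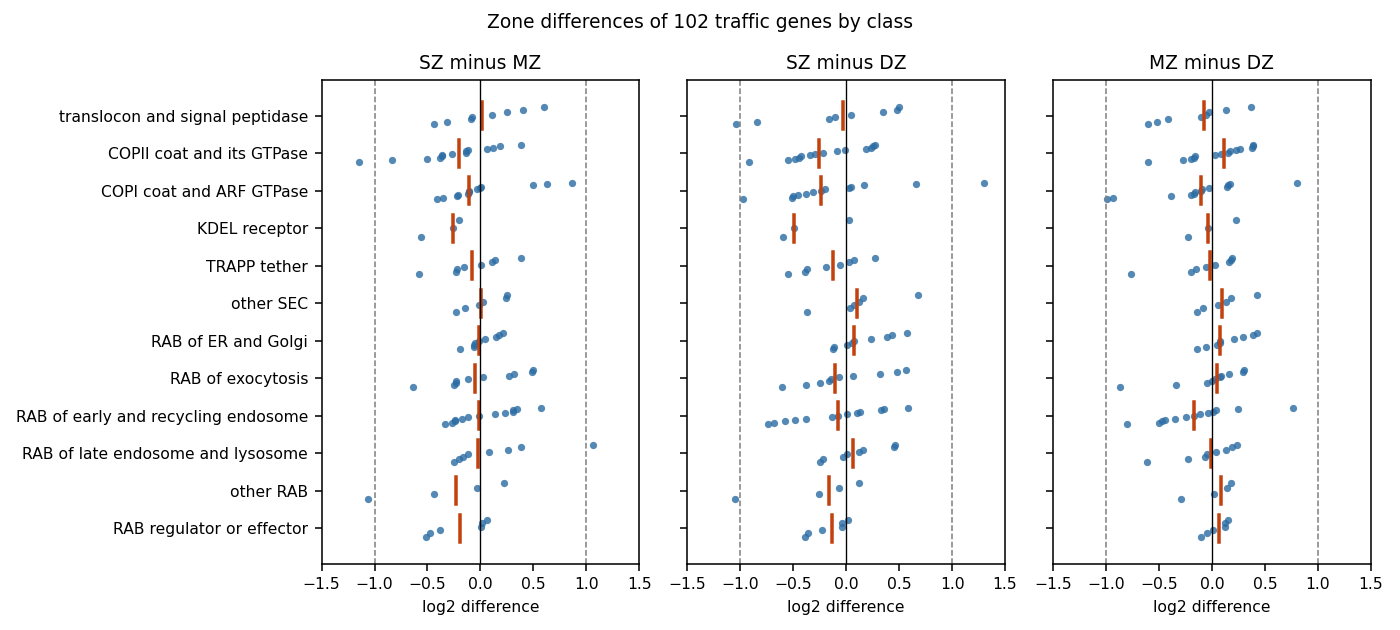
Log2 differences of the 102 traffic genes (points) by class, with the class median as an orange bar and dashed lines at 2-fold, for SZ minus MZ, SZ minus DZ and MZ minus DZ. The class medians of SZ minus DZ run from −0.49 for the KDEL receptors to 0.10 for the other SEC genes, and 3, 3 and 0 points lie beyond the dashed lines.

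Both SZ arrays were above both MZ arrays for 15 members (14.7%) and below them for 20 (19.6%), beside 17.7% and 17.5% of all probesets. Against DZ the SZ arrays were above for 17 (16.7%) and below for 22 (21.6%), beside 26.3% and 19.1%. The MZ arrays were above both DZ arrays for 15 (14.7%) and below them for 13 (12.7%), beside 22.7% and 15.2%. A stepwise increase from SZ through MZ to DZ in both animals was seen for 6 members, beside 6% of all probesets. They were SEC24C, KDELR1, SEC11C, SEC61A1, RAB14 and RAB22A, of which the last 2 were named after their values were seen. In the dCHIP matrix KDELR1, RAB14 and RAB22A did not keep this order in animal 1. A second RAB22A probeset had an SZ minus DZ difference of 0.63 (SE 0.30), against −0.68 (SE 0.25) for the one used. A stepwise decrease was seen for 5, beside 8.03%: COPG2, SEC62, SEC1, RAB7L1 and TRAPPC6A, of which the last 2 were likewise named afterwards. In the dCHIP matrix RAB7L1 and TRAPPC6A did not keep this order in both animals.

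Some members separated the animals in every zone. All 3 zones of animal 1 were above all 3 of animal 2 for 12 members, beside 7.07% of all probesets, and below them for 3, beside 5.93%. RAB15, a GTPase of recycling endosomes, read 5.64 and 4.44 in SZ, 4.95 and 3.99 in MZ, and 5.21 and 4.23 in DZ, so that animal 1 was higher in every zone. The SZ minus MZ difference of RAB15 was 0.57 (SE 0.23, 95% interval 0.02 to 1.12, adjusted p = 0.546), against −0.02 (SE 0.30) in the dCHIP matrix. COPE, COPG, SAR1B and RAB27B were among the 12 as well.

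A further 44 probesets of the same genes, dimmer than those used, gave a check on the values. The sign of the difference was shared with the probeset used for 30 of them in SZ against MZ, 25 in SZ against DZ and 22 in MZ against DZ. The median absolute gap between both was 0.18, 0.35 and 0.29, and 0 of the 44 were called. Of the 102 genes, 13 had a probeset below the lower quartile of at least 1 array, 6 of them on all 6 arrays.

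Genes that act with these members but do not share their names were read from 5 lists of 99 genes, of which 87 had a probeset. In each comparison 0 of the 87 were called, beside the 0.0416%, 2.75% and 0.704% given above. The median SZ minus DZ differences were −0.24 over 25 cargo receptors and exit site organisers, −0.11 over 17 SNAREs and their partners, −0.38 over 15 Golgi tethers, −0.31 over 10 ARF exchange factors, GAPs and other COPI genes, and −0.12 over 20 exocyst and exocytic SNARE genes, against 0.06 over all probesets and −0.05 over those above the median brightness. An unadjusted p under 0.05 was found in SZ against DZ for 5, 1, 2, 3 and 1 of them, beside 17.6% of all probesets. The list of 25 also holds CREB3L1 and CREB3L2, which are transcription factors, and CREB3L1 is among its 5.

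CREB3L1, an ER-bound transcription factor needed for type I collagen production in mouse osteoblasts, read 5.48 and 6.70 in SZ, 8.35 and 7.40 in MZ, and 7.65 and 7.73 in DZ. Both SZ arrays were below the other 4. Its SZ minus DZ difference was −1.60 (SE 0.49, 95% interval −2.79 to −0.41, adjusted p = 0.17), and the SZ minus MZ difference was −1.78 (SE 0.49, 95% interval −2.97 to −0.59, adjusted p = 0.337). BCAP31, an ER membrane cargo receptor, read 4.45 and 4.80 in SZ, 4.64 and 5.11 in MZ, and 6.39 and 5.66 in DZ, with both DZ arrays highest. The difference of SZ from DZ was −1.40 (SE 0.35, 95% interval −2.25 to −0.56, adjusted p = 0.108). STX5, the central SNARE of ER to Golgi fusion, read 6.45 and 5.84 in SZ, 7.32 and 6.56 in MZ, and 7.25 and 7.32 in DZ, and its SZ minus DZ difference was −1.14 (SE 0.28, 95% interval −1.83 to −0.46, adjusted p = 0.108).

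GBF1, the exchange factor that loads ARF at the Golgi for COPI, read 6.57 and 6.34 in SZ, 7.11 and 6.98 in MZ, and 8.01 and 7.11 in DZ, with both SZ arrays below the other 4. The SZ minus DZ difference was −1.10 (SE 0.28, 95% interval −1.78 to −0.43, adjusted p = 0.113). In the same comparison COG2 of the Golgi tether COG had −0.81 (SE 0.26) and the golgin GOLGA1 had −0.63 (SE 0.22). The exocytic SNAREs STX2 and VAMP3 had −0.99 (SE 0.45) and −0.66 (SE 0.23). VTI1B, a SNARE of the Golgi and endosomes, had 0.61 (SE 0.28). These genes were chosen from the lists by the size of their absolute SZ minus DZ difference, up to 2 from each list.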

How the data were processed

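The authors deposited a value table with 1 log2 expression value per probeset and array, made with RMA per the submitters' processing notes, and a second matrix of log2 values whose name carries dCHIP, which also gives the gene symbols. The sources used here do not give the background method, settings or genome build, so no coordinates or sequences are printed. Of 24128 probesets, 112 controls were left out. In limma 3.58.1 (R 4.3.3), 1 model with zone and animal was fitted to 24016 probesets and 6 arrays (residual degrees of freedom 2, prior 4.15), with moderated two-sided tests, Benjamini-Hochberg adjustment and 95% intervals.

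The animal was a block because the labels give the same animal number to its 3 zones. The difference between animals in SZ correlated across probesets with that in MZ (r = 0.259) and in DZ (r = 0.216), and that in MZ with that in DZ (r = 0.346). The median log2 value was 4.42 to 4.46 on the 6 arrays, whose number limits precision.

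Alternatives were no block, the dCHIP matrix, quantile normalisation, bright probesets only, the mean of a gene's probesets, a trended robust spread and each array left out. The code was tested on simulated data. Members, lists and classes were chosen with earlier results of these data known. Genes were named if called, if among the 6 highest or 6 lowest differences of a comparison and alike in both animals, if brightest in a class, or from a fixed list of 52. Of that list TRAPPC3, RAB1B and RAB23 are not analysed here. Of the partner lists, up to 2 genes each were named by the size of the SZ minus DZ difference, and 1 gene that the rule names is not reported here.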

Additional observations from a re-analysis of the deposited data

How the results depend on the processing

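The count of called members stayed at 0 in each comparison and in the F test under every alternative that kept all arrays, except for SZ against DZ. There 1 member was called in the dCHIP matrix (SEC1, 1.47, adjusted p = 0.0363) and 1 with bright probesets only (COPG2, 1.30, adjusted p = 0.0421, 83 members left). Over all probesets tested, the same comparison called 1262 of 24016 in the dCHIP matrix and 841 of 12008 with bright probesets only. With an array left out, 1 zone keeps a single array, so counts of called members from those fits are not given. Without the animal block (no pairing of the arrays) the count of called members was 0 in each comparison. Beside it, 3 of all probesets were called between SZ and MZ, 295 between SZ and DZ, and 62 between MZ and DZ. In the same order, the members with an unadjusted p under 0.05 numbered 5, 6 and 4, against 8, 10 and 6 with the block. Of 36 differences of named genes followed through every alternative, 3 changed sign, each in the dCHIP matrix: RAB15 in SZ against MZ (−0.015), ARF1 in SZ against DZ (−0.38) and ARF6 in MZ against DZ (0.74). Over all 102 members, 12, 17 and 22 had the opposite sign in that matrix between SZ and MZ, between SZ and DZ, and between MZ and DZ (11.8%, 16.7% and 21.6%, beside 23.6%, 20.4% and 20.7% of all probesets). The cause was not tested. Leaving out 1 array moved 20 of the 36 by over 1.5 times, and 0 of them changed sign. With 2 arrays per zone single arrays carry much weight, and dim members lie near the floor.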
